A study of Homo sapiens with 6 samples.

Results

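The kinesins and tubulins described here are the gene symbols of the deposited count table that begin with KIF or KIFC, or with TUBA, TUBB or TUBG, followed by a number and at most 1 letter, together with TUBB. This naming rule took 64 of 61155 symbols, of which 42 are kinesins and 22 are tubulins, the pseudogenes TUBB7P and TUBG1P included. The cells were MDA-MB-231, a human breast cancer line of mesenchymal character, and their RNA was sequenced in 3 VASP knockdown libraries and 3 control libraries, all harvested 48 hours after transfection. The knockdown libraries carry shVASP in their titles and a VASP siRNA in their characteristics, and the control libraries carry plko (a hairpin vector) in their titles and a negative control siRNA in their characteristics. Both descriptions give the same grouping, but they do not settle which reagent the cells received. A single knockdown reagent is named, so the loss of VASP and any other action of that reagent cannot be told apart. The control columns are named as 3 numbered repeats under the title of 1 control sample, and no label assigns the libraries to separate cultures. The p-values therefore measure only how these libraries varied, which may be technical variation.

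Kinesins are motor proteins that use ATP to move along microtubules or to take tubulin off their ends. Alpha- and beta-tubulin form the dimers from which microtubules are built, and gamma-tubulin starts new ones. Mitotic kinesins build and move the spindle and are transcribed mainly as cells approach division, whereas transport kinesins carry vesicles, organelles and RNA through the cytoplasm.

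The knockdown was present in every knockdown library. VASP, an actin regulator of the leading edge and focal adhesions, had 396, 379 and 360 counts in the knockdown libraries, against 4544, 5036 and 4708 counts in the control libraries, a log2 fold change of -3.69 (SE 0.06, edgeR adjusted p = 8.3e-24). Library totals ran from 28856610 to 30055503 counts. All 6 markers listed for MDA-MB-231 were tested and 0 of them were called by edgeR, and their summed level was 3340 to 3440 CPM (counts scaled to a common library size with TMM factors) in the knockdown libraries and 3330 to 3390 CPM in the control libraries. Of 6 neuron markers, listed because several tubulins and kinesins are known from neurons, 2 were tested and 0 were called. NEFL and ELAVL4 were at 0 in every library, and the summed level of the 6 was 2.16 to 2.64 CPM in the knockdown libraries and 2.04 to 2.98 CPM in the control libraries. Of 6 fibroblast markers 1 was tested and 0 were called, and DCN and LUM were also at 0. The summed level of the 6 was 6.03 to 6.19 CPM in the knockdown libraries and 5.81 to 6.93 CPM in the control libraries. Summed levels were 0.204 to 0.489 CPM over 5 leukocyte markers and 6.06 to 6.29 CPM over 4 endothelial markers in the knockdown libraries, against 0.103 to 0.311 CPM and 6.71 to 7.3 CPM in the control libraries; 1 of the 2 tested endothelial markers was called. Over 4 receptor and luminal genes known to be low in this line the summed level was 95.5 to 103 CPM in the knockdown libraries and 106 to 110 CPM in the control libraries, and 1 of 3 tested was called. The part of these markers in the results below was not tested.

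Most mitotic kinesins carried a common short sequence in their promoters. The cell cycle homology region, an element known from genes transcribed late in the cell cycle, was searched as TTTGAA or TTCGAA, and the CCAAT box as CCAAT, each on both strands, in the RefSeq windows of GRCh38.p14 from 250 bases before to 50 bases after each start. TTCGAA reads the same on both strands, and none of the motifs can lie inside another. TTTGAA was present in 15.2% of 35116 promoter windows, TTCGAA in 1.45%, and at least 1 of them in 16.4%. CCAAT was present in 34.6% of the windows, and together with a cell cycle motif in 6.38%. Of the 54 members with an entry, 16 had a cell cycle motif in at least 1 window, and 11 of the 15 mitotic kinesins were among them, 10 of these with CCAAT in the same window. KIF13B, KIFC2 and KIFC3, which fell in the knockdown libraries, and KIF21B and KIF27, which rose, had no entry and were not searched. A gene can have several windows, so gene counts and window shares are not on the same basis. The sites of the tested mitotic kinesins are shown because this feature is shared by genes that rose and genes that were not called; capitals mark the motif, and each sequence runs 5′ to 3′ on the strand of its gene, where TTCAAA is TTTGAA on the other strand. The first 5 genes rose in the knockdown libraries, and the last 4 were not called.
KIF11, chr10:92593090-92593119, plus strand: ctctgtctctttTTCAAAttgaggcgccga
KIF14, chr1:200620733-200620762, minus strand: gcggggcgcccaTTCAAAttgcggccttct
KIF18A, chr11:28108149-28108178, minus strand: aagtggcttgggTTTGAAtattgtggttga
KIF20B, chr10:89701602-89701631, plus strand: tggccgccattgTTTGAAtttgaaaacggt
KIF23, chr15:69414282-69414311, plus strand: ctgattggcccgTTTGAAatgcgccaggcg
KIF4A, chrX:70290058-70290087, plus strand: ctccgggacggaTTTGAAacttggcggtta
KIF18B, chr17:44947754-44947783, minus strand: ccgcccggctaaTTTGAAcgcaaggcgccg
KIF22, chr16:29790712-29790741, plus strand: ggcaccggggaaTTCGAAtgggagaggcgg
KIFC1, chr6:33391815-33391844, plus strand: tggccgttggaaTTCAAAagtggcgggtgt
KIF20B held a further TTTGAA directly after the one in capitals. Among the tested mitotic kinesins, a motif was present in 5 of the 6 that rose (not in KIF2A) and in 4 of the 6 that were not called (not in KIF20A or KIF2C). The match is a description of these windows, and binding was not measured.

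Called kinesins moved in both directions, and the few tubulins that were called all rose. A low-count filter left 46 of the 64 members, and of these 19 rose and 5 fell at an edgeR adjusted p below 0.05, which is 52.2% of those tested. Over all 16633 tested genes 37.2% were called, 18.9% up and 18.3% down. The kinesins held 15 of the increases and all 5 decreases among 31 tested genes, or 64.5% called. The tubulins held 4 increases among 15, or 26.7% called, under the 37.2% of all tested genes. The changes were small, from 1.1-fold to 1.47-fold among called members, beside a median of 1.23-fold over all called genes. The median log2 fold change was 0.15 for tested kinesins, 0.02 for tested tubulins and -0.008 for all tested genes. Knockdown and control libraries did not overlap for 27 members, 21 with higher and 6 with lower knockdown values, and over all tested genes the shares were 47.6% in either direction, 24.1% higher and 23.5% lower. Without control library 2, 12 members rose, and over all tested genes that setting gave 2238 increases in place of 3148.

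**Figure D1:**
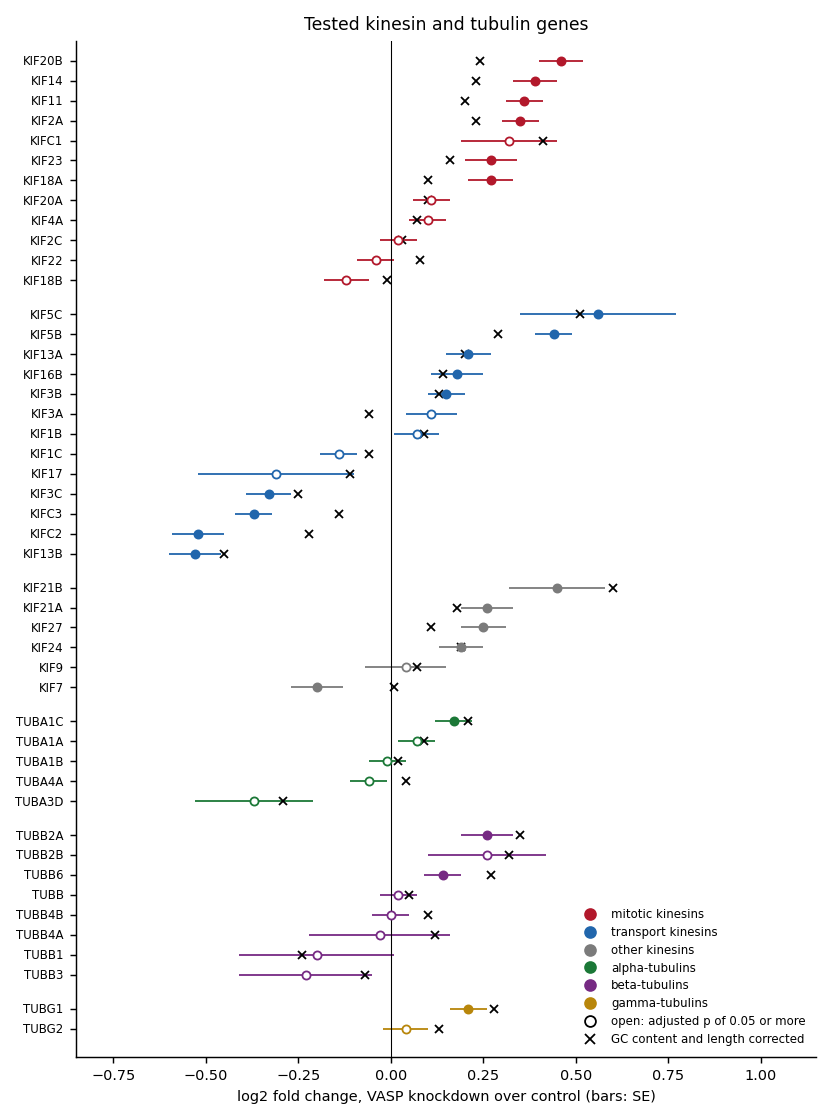
Log2 fold change (VASP knockdown over control) of the 46 tested members by role, with bars for 1 SE; filled circles passed an adjusted p of 0.05, open circles did not, and crosses give the value after correction for GC content and length. Most mitotic kinesins lie right of 0, and the transport kinesins lie on both sides. The called tubulins lie right of 0, from 0.14 for TUBB6 to 0.26 for TUBB2A. Tubulins that were not called and have small errors lie close to 0.

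Among 12 tested mitotic kinesins 6 rose and 0 fell by edgeR, with a median log2 fold change of 0.27. In bulk RNA, more cells of a kind or in a phase of the cycle and more RNA per cell cannot be told apart. KIF11, the spindle motor that slides antiparallel microtubules apart, had 135, 137 and 136 CPM in the knockdown libraries, against 101, 102 and 116 CPM in the control libraries. All 3 knockdown libraries lay above the highest control library, and the log2 fold change was 0.36 (SE 0.05, edgeR adjusted p = 1.2e-05). KIF20B, a motor of late cytokinesis, had 50.1, 51.5 and 56.7 CPM in the knockdown libraries, against 35.9, 37.7 and 41.6 CPM in the control libraries. Its log2 fold change of 0.46 (SE 0.06, edgeR adjusted p = 4.8e-06) was the highest of the role group, with no overlap between the libraries. KIF14, which acts at the midbody, had 62.3, 60.4 and 67.3 CPM in the knockdown libraries, against 45.9, 46.7 and 52.0 CPM in the control libraries (log2 fold change 0.39, SE 0.06, edgeR adjusted p = 1.4e-05). KIF2A, which removes tubulin from microtubule ends at spindle poles, had 53.0, 50.8 and 52.7 CPM in the knockdown libraries, against 40.6, 39.6 and 42.9 CPM in the control libraries (log2 fold change 0.35, SE 0.05, edgeR adjusted p = 2.8e-05). Both genes' libraries were likewise apart.

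KIF18A and KIF23 rose less. KIF18A, which dampens the swings of chromosomes at the metaphase plate, had 33.8, 36.5 and 36.5 CPM in the knockdown libraries, against 29.2, 28.0 and 31.2 CPM in the control libraries (log2 fold change 0.27, SE 0.06, edgeR adjusted p = 0.0011). KIF23, the motor of the central spindle complex that directs cytokinesis, had 110, 110 and 114 CPM in the knockdown libraries, against 81.9, 90.2 and 106 CPM in the control libraries (log2 fold change 0.27, SE 0.07, edgeR adjusted p = 0.01). Neither gene's libraries overlapped, but the control libraries of KIF23 were widely spread, and without control library 2 its adjusted p was 0.067 by edgeR. After correction for GC content and length, the adjusted p was 0.19 for KIF18A and 0.1 for KIF23.

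The mitotic kinesins with the highest levels per exon length did not pass the test. KIF20A, a cytokinesis motor, reached 48.9 ± 1.48 CPM per kilobase in the knockdown libraries and 45.2 ± 2.17 CPM per kilobase in the control libraries (SD, n = 3 each), with a log2 fold change of 0.11 (SE 0.05, edgeR adjusted p = 0.072). KIF2C, which corrects faulty attachments of microtubules to kinetochores, reached 40.7 ± 0.853 CPM per kilobase in the knockdown libraries and 40.2 ± 1.6 CPM per kilobase in the control libraries (log2 fold change 0.02, SE 0.05, edgeR adjusted p = 0.81). Both genes' groups overlapped. KIF22, a chromosome-arm motor, had a log2 fold change of -0.04, KIF4A, also on chromosome arms, of 0.10, and KIF18B, a plus-end motor, of -0.12, with edgeR adjusted p-values of 0.57, 0.13 and 0.1. KIFC1, a minus-end motor that clusters spindle poles, had 3.98, 3.75 and 3.4 CPM in the knockdown libraries, against 2.95, 2.86 and 3.11 CPM in the control libraries. These did not overlap, and its log2 fold change was 0.32 (SE 0.13, edgeR adjusted p = 0.057; 0.022 after correction for GC content and length). KIFC1 lies on 4 sequences of the annotation, with 3030 of its 10038 exon bases on chromosome 6, and may be undercounted. Calls appeared for KIF20A without control library 3 (edgeR adjusted p = 0.017) or without a low-count filter (0.043) and for KIF18B without control library 1 (edgeR adjusted p = 0.013, log2 fold change -0.19).

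**Figure D2:**
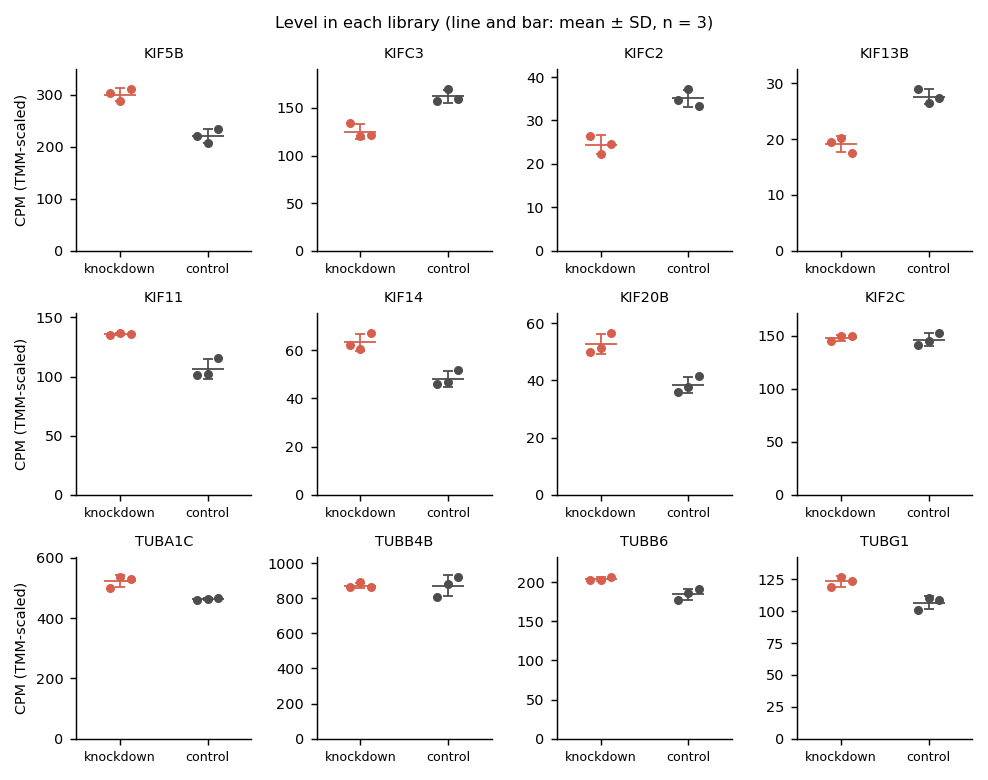
CPM (scaled by TMM) in each library for 12 members, VASP knockdown left of control, with the mean and SD of 3 libraries. KIF11, KIF14, KIF20B and KIF5B lie higher and KIFC3, KIFC2 and KIF13B lie lower in all 3 knockdown libraries, and KIF2C and TUBB4B overlap.

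Among 13 tested transport kinesins 5 rose and 4 fell, or 69.2% called beside 37.2% of all tested genes, and the median log2 fold change was 0.07. The conventional kinesin heavy chain KIF5B, which moves mitochondria and vesicles outward, had the smallest adjusted p of all members. KIF5B had 302, 287 and 311 CPM in the knockdown libraries, against 220, 207 and 234 CPM in the control libraries. The lowest knockdown library lay well above the highest control library, and the log2 fold change was 0.44 (SE 0.05, edgeR adjusted p = 5.6e-07). KIF5B was the kinesin with the highest mean level per exon length in the knockdown libraries, at 51.1 ± 2.05 CPM per kilobase, and stood below KIF20A and KIF2C in the control libraries at 37.6 ± 2.31 CPM per kilobase (SD, n = 3 each). In the knockdown libraries it did not stand above KIF20A by more than the spread. The gene lies on the minus strand of chromosome 10, at 32009015 to 32056425 of GRCh38.

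The other increases in this role group were smaller or came from low counts. KIF13A, an endosome and Golgi motor, had 48.1, 45.8 and 45.7 CPM in the knockdown libraries, against 40.8, 37.9 and 41.9 CPM in the control libraries (log2 fold change 0.21, SE 0.06, edgeR adjusted p = 0.0048). KIF3B, a subunit of the heterotrimeric motor that also serves cilia, had 136, 131 and 127 CPM in the knockdown libraries, against 123, 109 and 124 CPM in the control libraries (log2 fold change 0.15, SE 0.05, edgeR adjusted p = 0.028). KIF16B, an early endosome motor, had 19.9, 19.9 and 22.1 CPM in the knockdown libraries, against 17.8, 18.6 and 18 CPM in the control libraries (log2 fold change 0.18, SE 0.07, edgeR adjusted p = 0.04). In these genes the gap between the groups was narrow: about the spread within a group for KIF16B and less for KIF3B. KIF5C, a conventional heavy chain best known from neurons, had 1.47, 1.76 and 1.19 CPM in the knockdown libraries, against 1.1, 0.931 and 0.968 CPM in the control libraries (log2 fold change 0.56, SE 0.21, edgeR adjusted p = 0.038). A call for KIF3B was lost without knockdown library 1 (edgeR adjusted p = 0.13) or control library 2 (0.19). The KIF16B call was lost without knockdown library 3 (edgeR adjusted p = 0.21) or control library 1 (0.095), 2 (0.066) or 3 (0.065), and the KIF5C call without knockdown library 1 (edgeR adjusted p = 0.079) or 2 (0.17) or control library 2 (0.12) or 3 (0.072). With upper-quartile scaling the edgeR adjusted p was 0.055 for KIF3B and 0.079 for KIF16B, and with DESeq2 the adjusted p was 0.066 for KIF16B and 0.14 for KIF5C. KIF5C lies on 2 sequences of the annotation, with 9238 of its 15154 exon bases on chromosome 2, so its level may be an undercount.

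The minus-end motors KIFC2 and KIFC3 were among the 4 transport kinesins that fell. KIF13B, which carries membrane cargo to the cell edge, had 19.5, 20.2 and 17.5 CPM in the knockdown libraries, against 29, 26.4 and 27.4 CPM in the control libraries (log2 fold change -0.53, SE 0.07, edgeR adjusted p = 2.5e-06). KIFC2 had 26.4, 22.2 and 24.7 CPM in the knockdown libraries, against 34.7, 37.3 and 33.3 CPM in the control libraries (log2 fold change -0.52, SE 0.07, edgeR adjusted p = 2.6e-06). All knockdown libraries of both genes lay below the lowest control library. KIFC3, a minus-end motor known from epithelial junctions and the Golgi, had 134, 120 and 121 CPM in the knockdown libraries, against 157, 170 and 159 CPM in the control libraries (log2 fold change -0.37, SE 0.05, edgeR adjusted p = 6.4e-06). KIF3C, a partner of the KIF3 motor subunits, had 22.1, 22.3 and 21.2 CPM in the knockdown libraries, against 29, 26.2 and 27.1 CPM in the control libraries (log2 fold change -0.33, SE 0.06, edgeR adjusted p = 0.00032). These groups did not overlap, and the 4 decreases remained past the threshold in each of 13 alternatives for edgeR settings, tools and left-out libraries.

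KIF1C, a vesicle motor known from podosome dynamics in other cells, was the transport kinesin next in level to KIF5B, with 26.2 ± 1.99 CPM per kilobase in the knockdown libraries and 28.8 ± 1.41 CPM per kilobase in the control libraries (SD, n = 3 each). Its groups overlapped, and its log2 fold change was -0.14 (SE 0.05, edgeR adjusted p = 0.052). It passed the threshold without knockdown library 3 (edgeR adjusted p = 0.021), without control library 2 (0.044), with upper-quartile scaling (0.024) and with a filter of 1 CPM in 3 libraries (0.046). KIF3A, the further subunit of the KIF3 motor, had a log2 fold change of 0.11, KIF1B, a mitochondrial and vesicle motor, of 0.07, and KIF17, a motor known from neurons and cilia, of -0.31, with edgeR adjusted p-values of 0.25, 0.38 and 0.25.

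Of 6 tested kinesins with other roles 4 rose and 1 fell, or 83.3% called beside 37.2% of all tested genes. KIF24, which shortens centriolar microtubules and restrains cilia, had 31.4, 30.1 and 34.0 CPM in the knockdown libraries, against 27.1, 26.7 and 29.9 CPM in the control libraries (log2 fold change 0.19, SE 0.06, edgeR adjusted p = 0.023). KIF27, a relative of KIF7, had 28.6, 28.2 and 30.6 CPM in the knockdown libraries, against 24.5, 24.4 and 24.8 CPM in the control libraries (log2 fold change 0.25, SE 0.06, edgeR adjusted p = 0.0028). KIF27 lay clearly apart, whereas the groups of KIF24 nearly touched. KIF21A and KIF21B, which slow microtubule growth, had 19.1, 19.9 and 20.9 CPM and 5.51, 5.01 and 5.48 CPM in the knockdown libraries, against 15.8, 15.8 and 18.3 CPM and 4.22, 3.21 and 4.32 CPM in the control libraries. Neither overlapped, and their log2 fold changes were 0.26 (SE 0.07) and 0.45 (SE 0.13), with edgeR adjusted p-values of 0.0071 and 0.0069. KIF7, a regulator of Hedgehog signalling at the cilium tip, had 19.2, 17.7 and 18.1 CPM in the knockdown libraries, against 21.8, 21.7 and 19.7 CPM in the control libraries (log2 fold change -0.20, SE 0.07, edgeR adjusted p = 0.027).

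Several of these calls depended on single libraries or settings. Without control library 2, the edgeR adjusted p was 0.052 for KIF21A, 0.067 for KIF21B, 0.11 for KIF24 and 0.1 for KIF7, and 1 gene of the role group, KIF27, was still called. Without knockdown library 3 it was 0.14 for KIF24 and 0.078 for KIF7, without control library 1 it was 0.076 and 0.091, and without knockdown library 2 it was 0.12 for KIF7. The KIF7 call was also lost with the DESeq2 test (adjusted p = 0.078) and without a low-count filter (edgeR adjusted p = 0.074). KIF9, a motor of motile cilia, was not called (log2 fold change 0.04, edgeR adjusted p = 0.81).

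**Figure D3:**
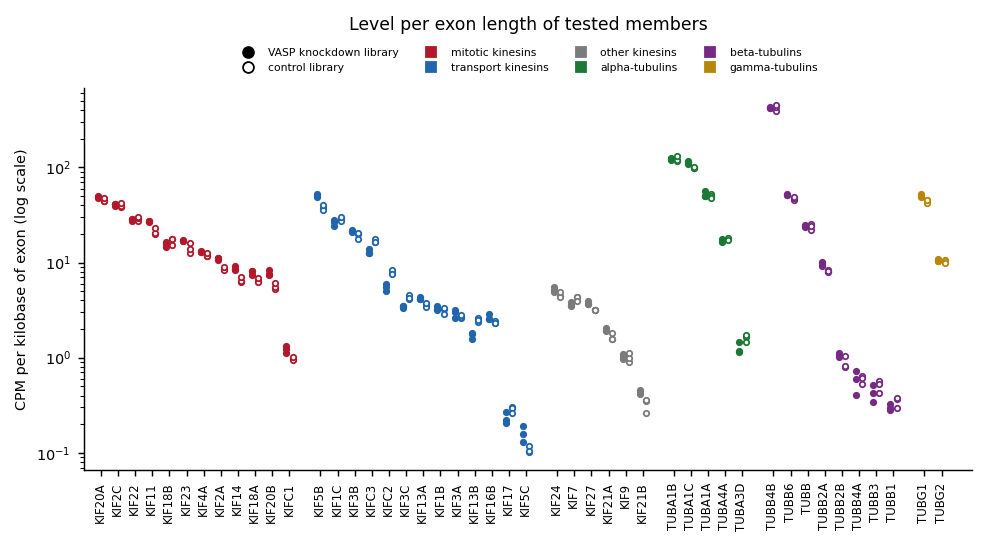
CPM per kilobase of exon on a log scale for the 46 tested members, ordered within each role by control level; filled circles are VASP knockdown libraries and open circles to their right are control libraries. TUBB4B stands highest and KIF5C, which may be undercounted, lowest, and within a gene the groups lie close together against the range between genes.

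The summed tubulin levels are given by library, since a test of 3 libraries against 3 cannot give an exact two-sided p below 0.1. Summed over 9 alpha-tubulins, the level was 299, 316 and 303 CPM per kilobase in the knockdown libraries, against 288, 290 and 299 CPM per kilobase in the control libraries (exact two-sided permutation p = 0.2). Summed over 9 beta-tubulins, it was 510, 525 and 513 CPM per kilobase in the knockdown libraries, against 473, 516 and 535 CPM per kilobase in the control libraries (exact two-sided permutation p = 0.9). The alpha means, 306 ± 8.81 CPM per kilobase in the knockdown libraries and 292 ± 5.99 CPM per kilobase in the control libraries (SD, n = 3 each), differed by more than either SD, with groups that overlapped only at the edge. The beta groups overlapped fully. Summed over 42 kinesins, the level was 379, 373 and 384 CPM per kilobase in the knockdown libraries, against 343, 344 and 369 CPM per kilobase in the control libraries. These groups did not overlap, and the exact two-sided permutation p was 0.1.

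Of 5 tested alpha-tubulins 1 rose and 0 fell by edgeR, with a median log2 fold change of -0.01. TUBA1B, the alpha-tubulin with the highest level per kilobase of exon though not in CPM, had 436, 445 and 429 CPM in the knockdown libraries, against 417, 430 and 471 CPM in the control libraries (log2 fold change -0.01, SE 0.05, edgeR adjusted p = 0.91). TUBA1C, its near-identical neighbour on chromosome 12 (49188736 to 49274603), had 500, 537 and 530 CPM in the knockdown libraries, against 461, 462 and 466 CPM in the control libraries. The knockdown libraries all lay above the tightly grouped control libraries (log2 fold change 0.17, SE 0.05, edgeR adjusted p = 0.0062). TUBA1C made up 36.9 ± 0.849% of the summed alpha-tubulin level in the knockdown libraries and 34.2 ± 0.495% in the control libraries, and TUBA1B made up 40.0 ± 0.767% in the knockdown libraries and 42.0 ± 1.85% in the control libraries (SD, n = 3 each; exact permutation p = 0.1 for TUBA1C and 0.2 for TUBA1B). TUBA1A, mutated in disorders of brain development, and TUBA4A, known from neurons and platelets, had log2 fold changes of 0.07 and -0.06 (edgeR adjusted p = 0.33 and 0.37). TUBA3D, a testis-enriched form, had 1.79, 1.83 and 2.28 CPM in the knockdown libraries, against 2.6, 2.69 and 2.32 CPM in the control libraries. These groups did not overlap, and the log2 fold change was -0.37 (SE 0.16, edgeR adjusted p = 0.073, or 0.047 without knockdown library 3).

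Of 8 tested beta-tubulins 2 rose and 0 fell by edgeR, or 25.0% called, under the 37.2% of all tested genes. Their median log2 fold change was 0.01. TUBB4B, which held most of the counted beta-tubulin level, had 862, 890 and 864 CPM in the knockdown libraries, against 805, 882 and 922 CPM in the control libraries. Its knockdown values lay inside the range of the control libraries (log2 fold change 0.00, SE 0.05, edgeR adjusted p = 0.96). TUBB6, the next beta-tubulin in counted level, had 203, 203 and 207 CPM in the knockdown libraries, against 177, 186 and 191 CPM in the control libraries (log2 fold change 0.14, SE 0.05, edgeR adjusted p = 0.018). TUBB2A had 16.1, 17.1 and 17.8 CPM in the knockdown libraries, against 14.5, 14 and 14.1 CPM in the control libraries (log2 fold change 0.26, SE 0.07, edgeR adjusted p = 0.0075). Neither gene's groups overlapped, and the TUBB6 call was lost without knockdown library 3 (edgeR adjusted p = 0.068) or control library 1 (0.077). TUBB6 made up 10.0 ± 0.201% of the summed beta-tubulin level in the knockdown libraries and 9.25 ± 0.238% in the control libraries, and TUBB4B 82.9 ± 0.216% in the knockdown libraries and 84.0 ± 0.49% in the control libraries (SD, n = 3 each; exact permutation p = 0.1 for both, the smallest possible). TUBB, TUBB2B, TUBB4A, TUBB3, the neuronal isotype followed in cancer for its link to taxane response, and TUBB1, the platelet isotype, had log2 fold changes of -0.23 to 0.26 and were not called.

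**Figure D4:**
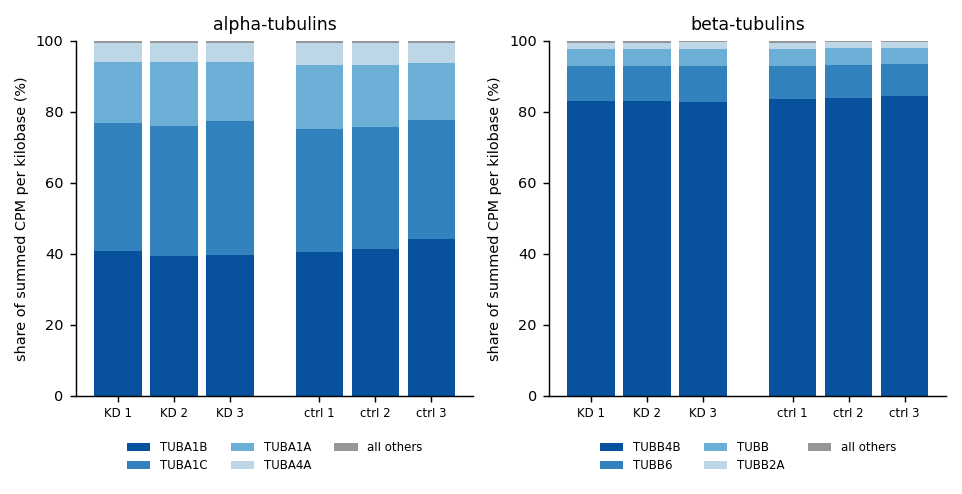
Share of each isotype in the summed alpha-tubulin and beta-tubulin level (CPM per kilobase of exon, in percent) in each library, VASP knockdown (KD) left of control (ctrl). TUBB4B fills 82.7% to 84.5% of each beta-tubulin bar, and TUBA1C takes a slightly larger part of the alpha-tubulin bars in the knockdown libraries. The shares rest on counted fragments, and TUBB may be undercounted.

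TUBG1, the main gamma-tubulin, had 119, 127 and 124 CPM in the knockdown libraries, against 101, 110 and 109 CPM in the control libraries. The groups did not overlap, with a log2 fold change of 0.21 (SE 0.05, edgeR adjusted p = 0.002). TUBG2, its paralogue, had 30.2, 29.3 and 29 CPM in the knockdown libraries, against 30, 28.8 and 27.3 CPM in the control libraries, and these overlapped (log2 fold change 0.04, SE 0.06, edgeR adjusted p = 0.65). RETREG3, whose exons overlap 5.48% of the exon bases of TUBG1, fell to 34.6 ± 0.671 CPM in the knockdown libraries, against 72.4 ± 2.35 CPM in the control libraries (SD, n = 3 each; log2 fold change -1.07, edgeR adjusted p = 2.6e-13). Counting took no account of strand, and the part of RETREG3 in the value of TUBG1 was not tested. KIF2A and TUBB6 also overlapped called genes. DIMT1 and IPO11, over 13.5% of the exon bases of KIF2A, rose (log2 fold changes 0.24 and 0.26, edgeR adjusted p = 0.00072 and 0.0016). AFG3L2, over 21.2% of those of TUBB6, fell (log2 fold change -0.21, edgeR adjusted p = 0.0032). Their part in the values of KIF2A and TUBB6 was not tested.

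Near-identical copies, overlapping genes and alternate sequences limit several tubulin levels. Reads with several alignments are not counted at the defaults of featureCounts, and the share of 50-base words of the transcript that also occur in other genes was 79.6% for TUBB3, 65.5% for TUBB2A, 52.2% for TUBB2B, 51.8% for TUBA1A, 47.6% for TUBA1B, 40.1% for TUBA1C, 30.3% for TUBG1 and 11.6% for TUBB4B, but 0.946% for TUBB6. Words were matched on either strand, and genes that overlap at the same place were included. TUBB3 shared most words with AC092143.1 and TUBA1B with AC011603.2, whose exons overlap 35.8% and 44.0% of their exon bases. Copies elsewhere and overlaps at the same place are therefore not told apart in these shares. By these shares, levels of these tubulins apart from TUBB6 are uncertain, as is that of KIF27, with 35.3%. The level of TUBB6 is limited by AFG3L2, which overlaps 21.2% of its exon bases. TUBB lies on 8 sequences of the annotation, with 3208 exon bases on chromosome 6 and 26722 in all. Its 24.1 ± 0.384 CPM per kilobase in the knockdown libraries and 23.8 ± 1.77 CPM per kilobase in the control libraries (SD, n = 3 each) may be undercounts. The summed tubulin levels and the isotype shares rest on the same counts and are uncertain for the same reasons. KIF15, a mitotic motor that can stand in for KIF11, has 5281 exon bases on chromosome 3 and 5281 more on a further sequence and was at 0 in every library, so nothing is read from that value.

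The 18 members that were not tested had 0 to 12 counts per library. KIF15, KIF2B and TUBB7P were at 0 in every library. For KIF2B this allows up to 3 counts in each, whereas TUBB7P, like KIF15, lies on several sequences and nothing is read from its 0. The others were KIF4B, KIF5A, KIF1A, KIF25, KIF6, KIF19, KIF26A, KIF26B, KIF12, TUBA3E, TUBA4B, TUBA8, TUBA3C, TUBB8 and TUBG1P. KIF5A and KIF1A are neuronal motors, and their highest counts in any library were 6 and 1.

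The direction of the kinesins moved with the GC content of their transcripts. Spearman's rho between GC content and log2 fold change was -0.42 over 16373 tested genes, -0.63 over 46 members, -0.70 over 31 kinesins and -0.14 over 15 tubulins, given as a description across genes, which share the same libraries. The 6 mitotic kinesins that rose had 34.2% to 42.3% GC and the 6 not called had 46.4% to 58.9%. Among all tested genes within these ranges, 41.3% and 9.55% rose. The 5 members that fell had 54.6% to 67.8% GC, a range in which 35.7% of all tested genes fell. The 4 tubulins that rose lay at 51.6% to 59.5%. The kinesin KIF21B also rose at 59.7%, above KIF13B and KIF3C, which fell at 54.6% and 56.0%.

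With the trend of GC content and length taken out of each library, 14 members rose and 4 fell by edgeR, against a background of 13.2% up and 14.1% down. Of the 24 original calls 17 were kept in the same direction, and KIFC1 was added. KIF18A, KIF23, KIF16B, KIF5C, KIF27, KIF21A and KIF7 were lost, with adjusted p-values of 0.064 to 0.9. All 4 tubulin increases were kept, and TUBB6, TUBB2A, TUBG1 and TUBA1C had corrected log2 fold changes of 0.27, 0.35, 0.28 and 0.21. KIF5B kept a corrected log2 fold change of 0.29 (edgeR adjusted p = 6e-05), KIF11 0.20 (0.0038), KIF13B -0.45 (3.6e-05), KIFC2 -0.22 (0.01) and KIFC3 -0.14 (0.018). For KIF21B the log2 fold change went from 0.45 to 0.60 (edgeR adjusted p = 0.0014). The median corrected value was 0.13 for mitotic and -0.06 for transport kinesins. Over the kinesins rho was still -0.50 after the correction, so a relation to GC content remained in them, while over all tested genes it was -0.02. Whether the relation to GC content arose in the cells or in library preparation was not tested.

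**Figure D5:**
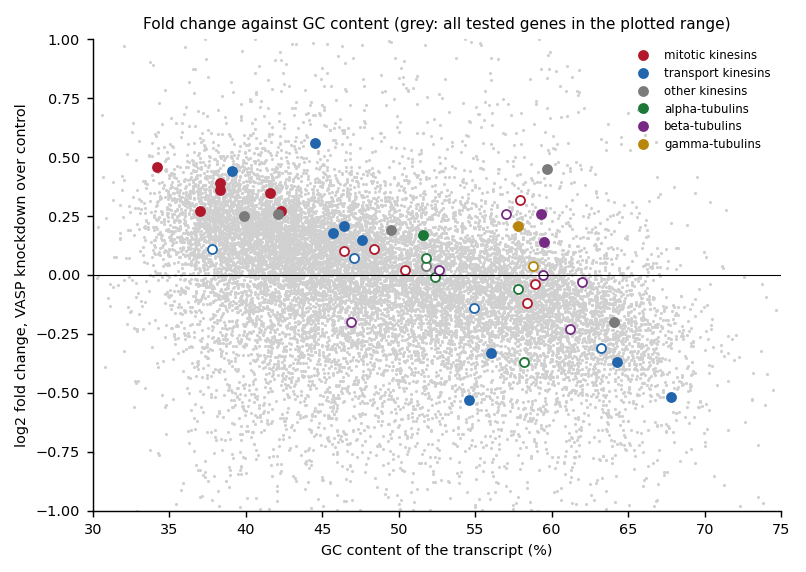
Log2 fold change (VASP knockdown over control) against GC content of the transcript in percent, with the members in colour (filled: adjusted p below 0.05; open: not called) over all tested genes within the plotted range as small grey dots. The mitotic kinesins that rose lie at the low-GC end. The members that fell lie at 54.6% to 67.8%, a range that also holds members that rose, such as KIF21B at 59.7%.

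Genes that work with kinesins and tubulins are described by list, beside the 37.2% of all tested genes that were called, or 27.2% after the correction. Percentages by list are from before the correction. After it, the share called was near 27.2% in the lists of kinesin partners, tubulin folding and the gamma-tubulin ring complex. It stayed above 27.2% in the mitotic, dynein and microtubule-associated lists and lay below it in the remaining lists. Of 30 tested mitotic genes other than kinesins 14 rose and 3 fell, or 56.7% (median log2 fold change 0.13; 11 and 2 after correction for GC content and length). ASPM, a spindle pole protein, rose to 137 ± 9.5 CPM in the knockdown libraries, against 92.7 ± 4.79 CPM in the control libraries, and CCNA2, cyclin A2, to 151 ± 1.53 CPM in the knockdown libraries, against 109 ± 4.77 CPM in the control libraries (log2 fold changes 0.56 and 0.47; edgeR adjusted p = 3.9e-08 and 7.2e-08). UBE2C, the ubiquitin-conjugating enzyme of the anaphase-promoting complex, fell to 222 ± 6.77 CPM in the knockdown libraries, against 308 ± 14.1 CPM in the control libraries (log2 fold change -0.48, edgeR adjusted p = 9.4e-08). The mitotic genes therefore did not share 1 direction. Errors here and below are SD over n = 3.

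Among 12 tested kinesin light chains, adaptors and motors with other names, 4 rose and 5 fell, or 75% (median -0.09; 3 and 1 after the correction). CENPE, the kinetochore kinesin, rose to 40.2 ± 1.79 CPM in the knockdown libraries, against 28.1 ± 2.02 CPM in the control libraries (log2 fold change 0.51, edgeR adjusted p = 1.1e-06). KLC4, a light chain of conventional kinesin, fell to 16.5 ± 1.09 CPM in the knockdown libraries, against 23.0 ± 1.47 CPM in the control libraries, while the heavy chain KIF5B rose. MAPK8IP3, an adaptor between cargo and kinesin, fell to 67.9 ± 1.17 CPM in the knockdown libraries, against 86.1 ± 6.54 CPM in the control libraries. The log2 fold changes were -0.48 and -0.34 (edgeR adjusted p = 2e-05 and 3.3e-05), and that of MAPK8IP3 was -0.10 (adjusted p = 0.12) after the correction.

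The tubulin folding list had 8 increases and 2 decreases among 20 tested genes, or 50% (median 0.08; 4 and 1 after the correction). VBP1, a prefoldin subunit, and CCT6A and CCT8, subunits of the chaperonin that folds tubulin, had log2 fold changes of 0.32, 0.28 and 0.26 (edgeR adjusted p = 7.4e-05, 0.00014 and 0.00032), and VBP1 was past the threshold no longer after the correction (adjusted p = 0.062). CCT6A averaged 357 ± 9.46 CPM in the knockdown libraries and 295 ± 17.7 CPM in the control libraries. Of 23 tested genes of the gamma-tubulin ring complex, augmin and the minor tubulins, 7 rose and 4 fell, or 47.8% (median 0.08; 5 and 1 after the correction). HAUS6, an augmin subunit, averaged 31.8 ± 1.58 CPM in the knockdown libraries and 23.3 ± 0.971 CPM in the control libraries, and NEDD1, which brings the ring complex to the spindle, 30.4 ± 1.25 CPM in the knockdown libraries and 23.0 ± 1.16 CPM in the control libraries (log2 fold changes 0.45 and 0.40; edgeR adjusted p = 7.9e-06 and 3.2e-05). MZT2A, a small ring complex protein, fell with a log2 fold change of -0.27 (edgeR adjusted p = 0.00074), which was 0.03 after the correction.

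Dynein and dynactin genes, which form the minus-end motor, showed 11 increases and 6 decreases among 28 tested, or 60.7% (median 0.06; 7 and 6 after the correction). The cargo adaptors BICD2 and HOOK2 fell, with 61.0 ± 1.11 and 19.0 ± 0.53 CPM in the knockdown libraries, against 82.6 ± 2.27 and 26.8 ± 2.83 CPM in the control libraries (log2 fold changes -0.44 and -0.49; edgeR adjusted p = 3.6e-07 and 1.4e-05). The intermediate chain DYNC1I2 rose, with a log2 fold change of 0.28 (edgeR adjusted p = 6e-05). Of 35 tested microtubule-associated, plus-end, severing and stathmin genes, 9 rose and 5 fell, or 40.0%, near the share of all tested genes (median 0.00; 9 and 4 after the correction). STMN3, a stathmin that binds tubulin dimers, fell to 20.7 ± 1.97 CPM in the knockdown libraries, against 32.6 ± 2.85 CPM in the control libraries. FIGNL1, an ATPase related to severing enzymes, rose to 37.9 ± 3.47 CPM in the knockdown libraries, against 26.7 ± 1.47 CPM in the control libraries. Their log2 fold changes were -0.66 and 0.50 (edgeR adjusted p = 7.8e-07 and 4.1e-06).

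Of 15 tested enzymes that modify tubulin 3 rose and 2 fell, or 33.3%, also near the share of all tested genes (median 0.03; 2 and 1 after the correction). TTLL3, a tubulin glycylase, fell (log2 fold change -0.43, edgeR adjusted p = 2.1e-05), and AGTPBP1, which removes glutamate chains, and VASH2, which removes the terminal tyrosine of alpha-tubulin, rose (0.22 and 0.56; adjusted p = 0.0013 and 0.0038). AGTPBP1 was past the threshold no longer after the correction (log2 fold change 0.09, edgeR adjusted p = 0.18). Of 16 tested intraflagellar transport genes IFT74 rose (log2 fold change 0.37, edgeR adjusted p = 0.00074) and IFT140 fell (log2 fold change -0.41, edgeR adjusted p = 0.00014), and 4 genes were called without knockdown library 2. That is 12.5% called, under the 37.2% of all tested genes.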

How the data were processed

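The authors deposited raw counts, whole numbers of fragments for each gene symbol, for 6 libraries. Per the file headers, featureCounts 1.6.4 counted read pairs over exons of GENCODE release 32, patches and alternate sequences included; the submitters' processing notes also name Trim Galore 0.6.4, STAR 2.7.1a and hg38. The header names no option for strand or for multi-mapping reads, so at the defaults strand was ignored and such reads were left out. Other deposited values are merged exon lengths, per the file headers.

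The members and lists were chosen with earlier results of these data known. Genes passing filterByExpr (16633) were scaled by TMM. The main test was edgeR 4.0.16 quasi-likelihood (two-sided, robust, with limma 3.58.1 in R 4.3.3), with Benjamini-Hochberg adjustment across these genes and a threshold of 0.05; the biological coefficient of variation was 4.81%. The fit was tested on simulated data. Fold changes are knockdown over control, the SE is the log2 fold change over the square root of F, and CPM per kilobase uses exon bases of the main chromosome. Members past the threshold, the 2 highest per role and up to 3 smallest p-values per list are named; other tested members are named with values to account for the whole family. The result of 1 gene named by this rule is not reported here. DESeq2 1.42.0, other scalings and filters, and leaving out each library were alternatives. Control libraries are numbered in table order, as names only. Coordinates are those of the table, on GRCh38. The floor is 3 counts per library and covers counting error only.

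The correction removes per-library natural splines (5 degrees of freedom) of GC content, from GENCODE release 29, and of length. Its form was changed after its effect on the members had been seen: the first form took the longest transcript of any type, the length in the table and a trend over all tested genes, and the form reported takes the longest protein-coding transcript, the main-chromosome length and a trend over protein-coding genes. Both are given in the closing section.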

Additional observations from a re-analysis of the deposited data

How the results depend on the processing

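No paired analysis was possible because the control columns carry no sample's replicate number. The form of the GC content and length correction was chosen after both forms had been seen. The form reported called 4527 genes and 18 members (14 up, 4 down), and the first form called 4633 genes and 19 members (15 up, 4 down). Both kept the same 17 of 24 member calls; the first form also called TUBG2 (log2 fold change 0.17, adjusted p = 0.026), for 2 gamma-tubulins. Calls under the reported and the first form were 2 and 2 for other kinesins, 4 and 5 for kinesin partners, 5 and 6 for folding, 6 and 7 for the gamma-tubulin ring complex list and 3 and 3 for modifying enzymes. Leaving out each library gave 12 to 18 members up, 1 to 5 other kinesins, 1 to 2 alpha-tubulins, 1 to 2 beta-tubulins and 2 to 4 intraflagellar transport genes. The log2 ratio of the summed beta-tubulin level ran from -0.03 to 0.06 when each library was left out, with -0.03 without control library 1, and was 0.02 without TUBB, an alternative added after seeing the data. With the correction 2 called decreases changed sign and lost their call, KIF7 (0.01) and MZT2A (0.03). Other signs turned for values that were not called: with the correction for KIF22 (0.08; first form 0.06), KIF3A (-0.06; first form -0.04), TUBA1B (0.02; first form 0.05), TUBA4A (0.04; first form 0.03) and TUBB4A (0.12; first form 0.12). With upper-quartile scaling they turned for KIF2C (-0.01), TUBB4B (-0.02) and TUBB (0.00), and for TUBA1B without a low-count filter (0.01) and by DESeq2 (0.00). When each library was left out they ran from -0.01 to 0.05 for KIF2C, -0.03 to 0.13 for KIF9, -0.04 to 0.05 for TUBA1B, -0.05 to 0.05 for TUBB4B, -0.03 to 0.07 for TUBB and -0.24 to 0.17 for TUBB4A. The cause of these changes was not tested. At this depth members with a few counts per library, such as KIF5A and TUBA8, were not tested.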

Other observations

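The 6-base word GTCGTC was present in the 3' UTR of 678 tested genes, of which 277 fell (40.9%), against 28.2% of 1847 genes with it elsewhere in the transcript only and 17.6% of 10138 genes without it. The word was taken up because earlier results of these data pointed to it, so the shares describe the same data and are no test of it. They are matched neither for 3' UTR length nor for GC content, which also moved with the fold changes (rho -0.42 over 16373 tested genes). Among tested members it was present in the 3' UTR of KIF13B, which fell, and of KIF22, which was not called, and its part in either value was not tested.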
